A study of Homo sapiens with 18 samples.

Results

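The genes described here are 10 regulators of apoptosis of the BCL2 family, BCL2, BCL2L1, MCL1, BAK1, BID, BCL2L11, PMAIP1, BIK, BAD and BMF, taken by name from the 58884 genes of the count files. All 10 were found and all 10 had enough counts to be tested in every comparison. Poly(A) RNA was sequenced from T47D, an estrogen receptor-positive breast cancer line, in 18 libraries that form 6 groups of 3. Cells labelled WT (line T47D AAV) and cells labelled PARP1 KO (line T47D JL) each received the vehicle DMSO, niraparib or olaparib for 48 hours, both inhibitors at 10 μmol/L. Both compounds inhibit PARP enzymes, which attach ADP-ribose to proteins at DNA breaks. The labels do not say how the knockout was made, whether it is 1 clone, or whether the libraries of a group came from separate cultures. The study's methods describe 3 culture dishes for each condition of the omics experiments, without saying whether each library is 1 dish. Genotype and the history of the 2 lines cannot be told apart, and P values measure the spread between these libraries, which may be that between dishes or technical.

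Library totals were between 28890837 and 52251288 counts. PARP1 checked the genotype labels: its level was 25.1 ± 1.38 CPM (counts scaled to a common library size) in the PARP1 KO libraries and 337 ± 26.95 CPM in the WT libraries (mean ± SD, n = 9 each), or 7.45% of WT, without overlap (exact permutation test, two-sided, P = 4.11e-05, the smallest this design allows). Among the markers of luminal breast epithelium, 8 of 8 were above 1 CPM on average, summed to between 9290 and 14973 CPM per library. Of 11 markers of basal, immune, stromal and endothelial cells, 9 were below 1 CPM, and the others were COL1A1 with a mean of 109.9 CPM and TP63 with 1.71 CPM. With either inhibitor in WT cells 7 of the 8 luminal markers fell by the adjusted P value, and 4 of 8 did so with olaparib in PARP1 KO. Their summed level was 12829 to 13433 CPM in WT with DMSO, 9290 to 10272 with niraparib and 10149 to 10584 with olaparib, and 14276 to 14973, 13236 to 13557 and 12212 to 13220 CPM in PARP1 KO in the same order. Of the markers of other cells, 1 was called against DMSO, TP63, which rose with niraparib in WT from 1.401 to 2.41 CPM on average (log2 fold change 0.78, adjusted P = 0.0031, edgeR). The part of these markers in the results below was not tested. Some libraries stood apart within their group. By the chi-square statistic per gene between 2 libraries, which is near 1 for sampling noise alone, DMSO replicate 1 in WT was at 17.5 or more against the other libraries of its group, which were at 3.28 against each other. In the same way niraparib replicate 2 in WT was at 12.2 and 16.8 against 3.41, and niraparib replicate 3 in PARP1 KO at 11.7 and 14.7 against 3.13. Olaparib replicates 1 and 3 in PARP1 KO differed by 18.3. The numbers of genes that passed without single libraries stand beside the comparisons.

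BCL2 family proteins set whether the outer mitochondrial membrane is breached, the step that releases cytochrome c and starts the caspase cascade. BCL2, BCL-XL (from BCL2L1) and MCL1 guard the membrane, BAK1 and BAX form the pores, and the BH3-only proteins (BID, BIM from BCL2L11, NOXA from PMAIP1, BIK, BAD and BMF) neutralize the guards or activate the pore formers. NOXA binds MCL1 by preference, whereas BIM binds all of the guards. Several BH3-only genes are set by transcription under stress, so RNA is a common readout of them.

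Levels between genes were compared per exon length, as CPM per kb of exon. In the WT DMSO libraries MCL1 stood highest at 85.7 ± 1.90 CPM per kb, next to BCL2L1 at 84.5 ± 6.07 (SD, n = 3), and the libraries of the 2 genes overlapped. Both were above BAD, which promotes death when unphosphorylated, at 30.2 ± 2.18 CPM per kb. BAK1 followed at 10.9 ± 0.423, BID at 8.49 ± 0.930 and BMF at 4.27 ± 0.361 CPM per kb, each below the preceding gene in every library. PMAIP1 at 2.28 ± 0.402 and BCL2L11 at 1.99 ± 0.0683 CPM per kb overlapped. BIK stood at 1.05 ± 0.323 and BCL2 was the lowest at 0.222 ± 0.0138 CPM per kb. BCL2 thus made up 0.130% ± 0.0108 of the summed level per length of the 3 guards in this group. Low levels set the precision: BCL2 rested on 55 to 126 counts per library and BIK on 20 to 73, against 10521 to 23442 for MCL1. Reads of the processed copies BAK1P1 and BAK1P2 could be confused with BAK1, and these copies held at most 6 counts in a library, against 659 or more for BAK1.

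**Figure D1:**
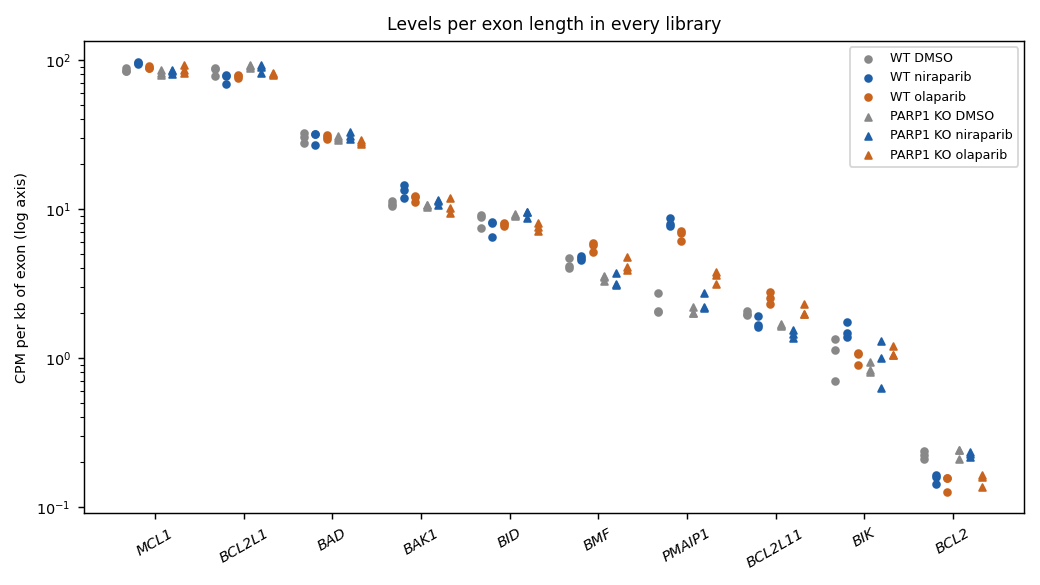
Level of the 10 genes in CPM per kb of exon (log axis), each point 1 library, with genes in the order of their mean in WT DMSO cells. MCL1 and BCL2L1 lie at 69.5 to 96.6, and PMAIP1 is the gene whose groups lie farthest apart, from 2.001 to 8.68.

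A gene passed when its P value, adjusted over all genes tested, was under 0.05 (edgeR quasi-likelihood F test, Benjamini-Hochberg), and was called when its change also exceeded 1.5-fold. With niraparib against DMSO in WT cells, 5 of the 10 genes passed (background over all genes tested, 38.0%): PMAIP1, BAK1 and MCL1 were higher and BCL2 and BCL2L1 lower. Of these, 1 was called, PMAIP1 (background 13.8%). All genes tested include many at few counts, which lowers the background. Under the stricter count filter filterByExpr, 8615 of 16827 genes passed with niraparib in WT and 4516 with olaparib in WT. The backgrounds given are over all genes tested. With olaparib in WT cells 4 passed (background 19%), PMAIP1, BCL2L11 and BMF upward and BCL2 downward, and 2 were called, PMAIP1 and BCL2 (background 4.04%). The median log2 fold change of the 10 genes was 0.06 with niraparib and 0.04 with olaparib, against -0.02 over all genes tested in either comparison. Over the 6 fits that left out a library, 3 to 6 genes passed with niraparib and PMAIP1, BAK1 and MCL1 did so in each, the 3 alone without niraparib replicate 2 or DMSO replicate 3. The 6 came without DMSO replicate 1, where BCL2 was lost and BID and BMF were gained, and without niraparib replicate 1 BCL2L11 was gained in place of BCL2. With olaparib 2 to 4 passed, and these were BMF and PMAIP1 alone without olaparib replicate 3 and BCL2L1 in place of BCL2 without DMSO replicate 1. Both comparisons share the 3 WT DMSO libraries, as those in PARP1 KO share the 3 PARP1 KO DMSO libraries.

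Niraparib in PARP1 KO cells left 0 of the 10 genes past the test (background 0.109%) and 0 called (background 0.0136%), and 0 had an unadjusted P value below 0.05 (background 9.14%). DESeq2 also called 0. No gene passed in any of the 6 fits that left out a library. Their log2 fold changes lay between -0.19 for BCL2L11 and 0.19 for PMAIP1. With olaparib in PARP1 KO cells 6 passed (background 8.29%): PMAIP1, BCL2L11 and BMF were higher and BCL2, BID and BCL2L1 lower. PMAIP1 and BCL2 were the 2 called (background 0.803%). There, BCL2L1 and BCL2 had adjusted P values of 0.048 and 0.045 (edgeR), close to the threshold. The 6 that passed fell to between 1 and 4 when any one of these 6 libraries was left out, and PMAIP1 passed in each such fit.

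The inhibitors were also compared directly at their shared dose and time, in 1 pair per genotype. In WT cells 3 of the 10 genes passed (background 32.2%), PMAIP1 higher and BCL2L11 and BMF lower with niraparib than with olaparib, and 0 were called (background 8.95%), with 5 at an unadjusted P value below 0.05 (edgeR, background 39.8%). Without single libraries 1 to 4 passed: BCL2L11 alone without olaparib replicate 3, BCL2L11 and BMF without niraparib replicate 1 or 3 or olaparib replicate 1 or 2, and BAK1 in addition to the 3 without niraparib replicate 2. In PARP1 KO cells 5 passed (background 10.0%), BCL2 and BID higher and BCL2L11, PMAIP1 and BMF lower with niraparib, and again 0 were called (background 1.07%), with 7 at an unadjusted P value below 0.05 (background 22.1%). Here 3 to 5 passed without single libraries, BCL2 in none of these fits and BCL2L11, BID and PMAIP1 in each. The 3 were alone without niraparib replicate 2 or olaparib replicate 1. With BMF, 4 passed without niraparib replicate 1 or olaparib replicate 2 or 3, and BCL2L1 took the place of BCL2 without niraparib replicate 3. Between the genotypes with DMSO alone, 1 gene passed, BMF (background 1.39%), and 0 were called (background 0.146%), with 2 at an unadjusted P value below 0.05 (background 13.6%). Without single libraries BMF passed once in 6 fits, and 0 genes did otherwise. DESeq2 also called 0 in these 3 comparisons. For the interaction, which is the change in PARP1 KO minus the change in WT, PMAIP1 was the 1 gene that passed with niraparib (background 22.9%) and the 1 that was called (background 8.88%). Without WT DMSO replicate 1 BID also passed with niraparib (adjusted P = 0.046, edgeR), and without WT niraparib replicate 2 BAK1 did (adjusted P = 0.047). With olaparib PMAIP1 was again the 1 gene past the test (background 2.27%) and called (background 0.657%), and the only one to pass in each of the 12 fits that left out a library.

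**Figure D2:**
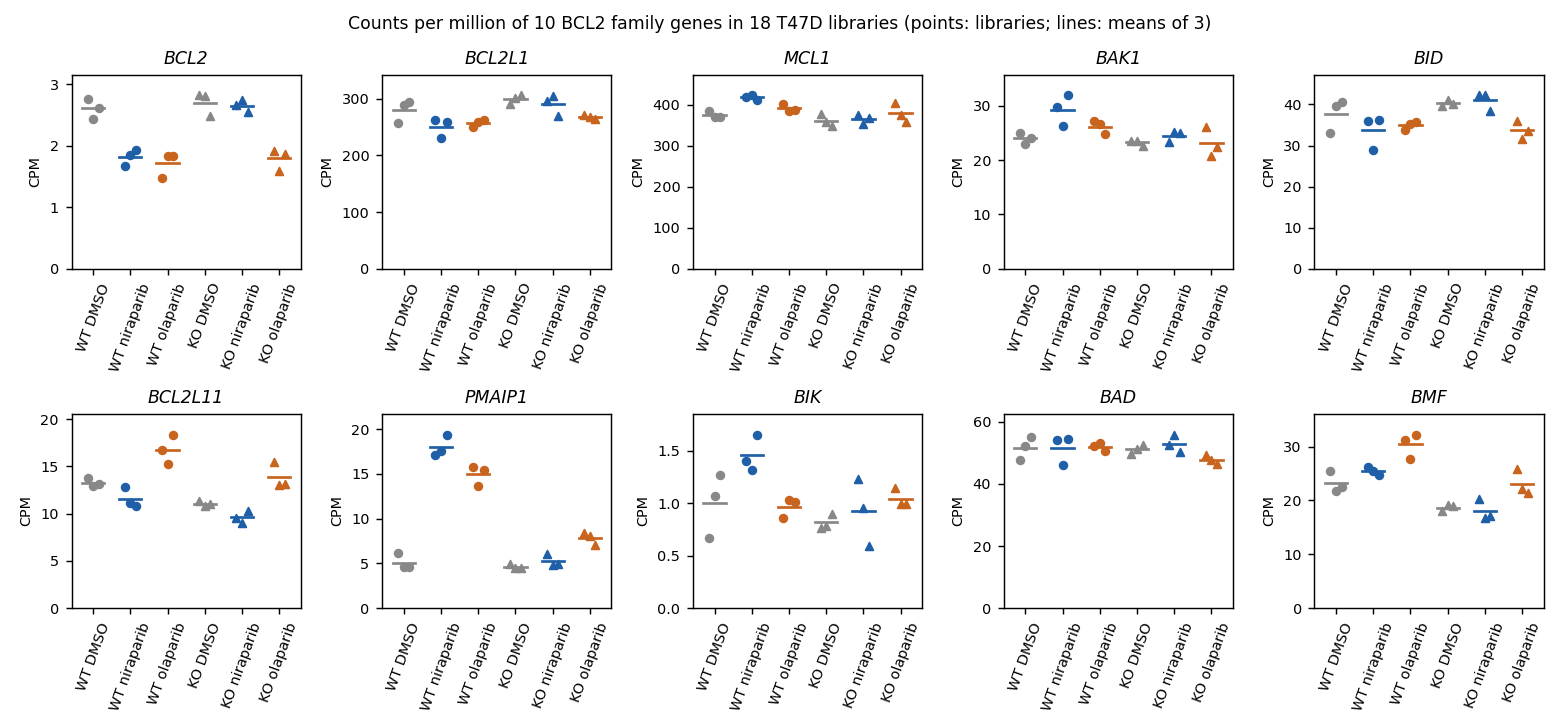
CPM of each gene in every library, with points for libraries and lines for the means of 3; circles are WT, triangles PARP1 KO, grey DMSO, blue niraparib and orange olaparib, and each axis starts at 0. PMAIP1 reaches 17.2 to 19.4 CPM in WT with niraparib and stays at 4.86 to 6.10 CPM in PARP1 KO with niraparib.

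Among the guards, BCL2 (ENSG00000171791, chr18:63123346-63320128 of GRCh38, minus strand) is the founding survival gene of the family. It stood at 2.77, 2.44 and 2.62 CPM in the WT DMSO libraries, at 1.67, 1.86 and 1.92 CPM with niraparib and at 1.48, 1.84 and 1.84 CPM with olaparib. Every treated WT library was below every DMSO library. Niraparib changed it by -0.52 on the log2 scale (standard error [SE] 0.18, adjusted P = 0.028, edgeR), and olaparib by -0.60 (SE 0.19, adjusted P = 0.027). The levels in PARP1 KO were 2.82, 2.81 and 2.48 CPM with DMSO, 2.66, 2.74 and 2.56 CPM with niraparib and 1.92, 1.59 and 1.87 CPM with olaparib. Here the niraparib libraries lay among the DMSO libraries, with a log2 fold change of -0.02 (95% interval -0.38 to 0.34), while the olaparib libraries were all lower, at -0.59 (SE 0.18, adjusted P = 0.045, edgeR). Niraparib was above olaparib there by 0.57 (adjusted P = 0.048, edgeR), which was lost without any one of the 6 libraries, with adjusted P values from 0.065 to 0.17. The interaction of BCL2 with niraparib was 0.49 (95% interval -0.0075 to 0.98, adjusted P = 0.16, edgeR), so a difference between the genotypes was not detected for it. These calls were narrow: that for olaparib in WT was lost when olaparib replicate 1 or 3 or DMSO replicate 1 or 3 was left out, with adjusted P values up to 0.13 (edgeR), and that in PARP1 KO was lost without any one of the 6 libraries, with adjusted P values from 0.062 to 0.17. The passing of BCL2 with niraparib in WT was lost without niraparib replicate 1 or 2 or DMSO replicate 1 or 3, at adjusted P values up to 0.085.

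BCL2L1 (ENSG00000171552, chr20:31664452-31723989, minus strand), whose long product is the guard BCL-XL, was at 257, 289 and 293 CPM in WT with DMSO, at 262, 230.3 and 259.6 CPM with niraparib and at 249.9, 258 and 263 CPM with olaparib. The treated and untreated libraries overlapped, and the log2 fold change with niraparib was -0.16 (SE 0.058, adjusted P = 0.032, edgeR), which no longer passed without niraparib replicate 2 or DMSO replicate 2 or 3. In PARP1 KO with olaparib it was also -0.16 (adjusted P = 0.048), and this was lost without any one of the 6 libraries, with adjusted P values from 0.059 to 0.19 (edgeR). MCL1 (ENSG00000143384, chr1:150574551-150579738, minus strand), a short-lived guard, stood at 384, 369.7 and 370.2 CPM in WT with DMSO and at 419, 422 and 412 CPM with niraparib. All niraparib libraries were above all DMSO libraries, by 0.16 on the log2 scale or 1.11-fold (SE 0.044, adjusted P = 0.0066, edgeR), and the gene passed without any one library. With olaparib MCL1 was at 401, 385 and 388 CPM, a log2 fold change of 0.07 (95% interval -0.025 to 0.16). MCL1 in PARP1 KO cells lay between 348 and 404 CPM over all 3 treatments.

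BAK1 (ENSG00000030110, chr6:33572547-33580293, minus strand) encodes a pore former of the mitochondrial membrane. Its levels were 24.9, 23.1 and 24.005 CPM in WT with DMSO, 29.7, 26.3 and 31.9 CPM with niraparib and 27.1, 26.7 and 24.7 CPM with olaparib. The niraparib libraries were all above the DMSO libraries, at a log2 fold change of 0.29 (SE 0.072, adjusted P = 0.0029, edgeR), whereas with olaparib it was 0.13 (95% interval -0.020 to 0.28). BAK1 in PARP1 KO cells lay between 20.8 and 26.2 CPM, and its interaction with niraparib was -0.21 (95% interval -0.43 to 0.011, adjusted P = 0.18). The other pore former, BAX, is outside the 10 genes and moved in the same direction in WT cells: its mean was 25.1 ± 1.15 CPM for DMSO, 35.9 ± 1.48 for niraparib and 29.8 ± 1.66 for olaparib (SD, n = 3). The log2 fold change of BAX was 0.52 with niraparib (SE 0.064, adjusted P = 8.5e-07, edgeR), and 0.25 on olaparib (adjusted P = 0.0069, lost without DMSO replicate 3). In PARP1 KO it was 0.07 with either inhibitor, and the interaction with niraparib was -0.46 (SE 0.096, adjusted P = 3.6e-04).

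**Figure D3:**
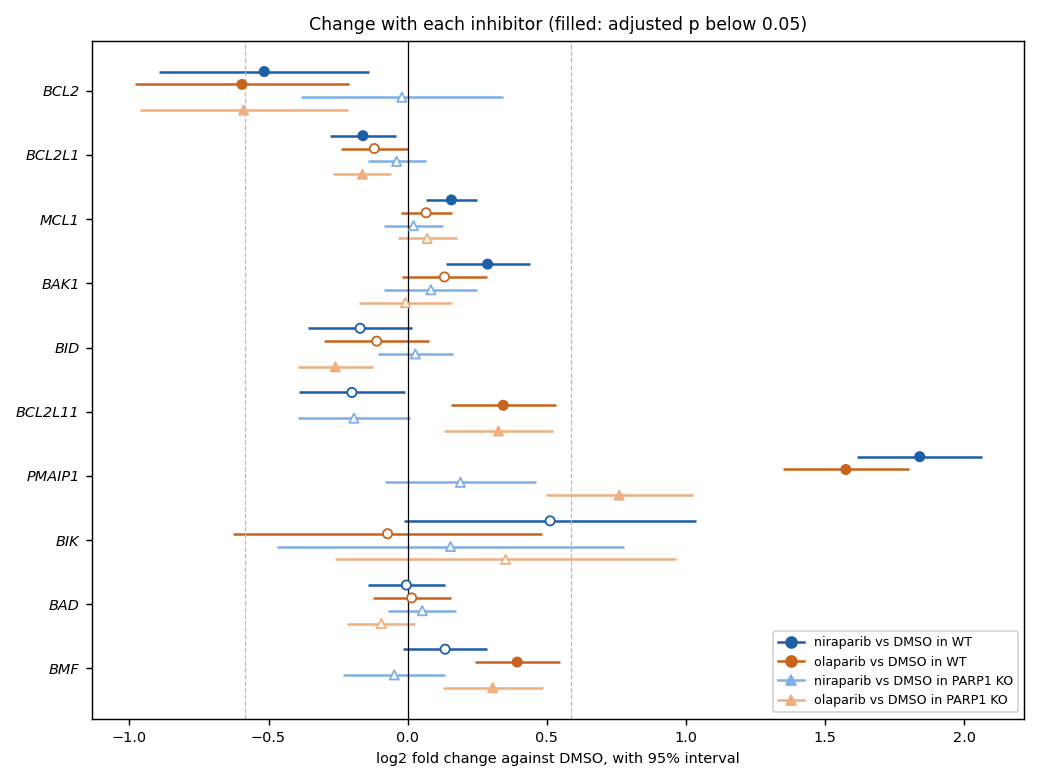
Log2 fold change of the 10 genes against DMSO with 95% intervals; circles are WT, triangles in lighter shades PARP1 KO, blue niraparib and orange olaparib, filled symbols have an adjusted P value under 0.05, and dashed lines mark 1.5-fold. PMAIP1 reaches 1.84 and 1.57 in WT, and the olaparib values of BCL2L11 and BMF lie at 0.31 to 0.39 in both genotypes.

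The upstream sequences of the members that were called, and of BCL2L11 and BMF, which passed together with olaparib in both genotypes, are shown as the stretches a reader would search for shared elements. Each is 300 bases long, from 250 before to 50 after a transcription start of RefSeq (GRCh38.p14), 5′ to 3′ on the strand of the gene. Of the 10 genes, 8 matched the promoter table, MCL1 and BIK being the others. BMF has 2 windows in it, of which the first listed is printed. The second, chr15:40106917-40107216, held 0 matches to the motifs below and had a GC content of 50.3%. Capitals mark matches, on either strand, to 6 motifs. These were the GC box GGGCGG, the box CCAAT, the half-site TGACG of the cAMP response element, its full site TGACGTCA (which contains the half-site), the forkhead site GTAAACA and the E-box CACGTG.
PMAIP1, chr18:59899746-59900045, plus strand: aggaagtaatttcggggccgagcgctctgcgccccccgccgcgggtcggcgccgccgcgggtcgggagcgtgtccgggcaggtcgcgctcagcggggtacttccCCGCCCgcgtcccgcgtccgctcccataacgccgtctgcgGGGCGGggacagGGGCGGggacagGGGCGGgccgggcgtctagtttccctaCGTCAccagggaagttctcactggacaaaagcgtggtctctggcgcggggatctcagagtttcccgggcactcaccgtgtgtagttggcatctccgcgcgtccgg
BCL2L11, chr2:111120664-111120963, plus strand: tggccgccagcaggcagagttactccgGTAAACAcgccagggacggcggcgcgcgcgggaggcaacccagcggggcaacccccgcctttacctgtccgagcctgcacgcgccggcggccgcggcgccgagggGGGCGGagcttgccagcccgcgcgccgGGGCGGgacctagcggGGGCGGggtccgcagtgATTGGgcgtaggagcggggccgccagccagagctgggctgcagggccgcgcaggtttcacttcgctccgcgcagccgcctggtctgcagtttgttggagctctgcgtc
BMF, chr15:40108830-40109129, minus strand: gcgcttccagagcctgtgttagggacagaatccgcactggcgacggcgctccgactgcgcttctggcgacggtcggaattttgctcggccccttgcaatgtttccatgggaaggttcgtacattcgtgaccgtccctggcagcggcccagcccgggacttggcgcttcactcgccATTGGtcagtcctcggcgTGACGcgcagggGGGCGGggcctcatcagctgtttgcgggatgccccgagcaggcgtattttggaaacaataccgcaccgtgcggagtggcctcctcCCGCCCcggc
BCL2, chr18:63319720-63320019, minus strand: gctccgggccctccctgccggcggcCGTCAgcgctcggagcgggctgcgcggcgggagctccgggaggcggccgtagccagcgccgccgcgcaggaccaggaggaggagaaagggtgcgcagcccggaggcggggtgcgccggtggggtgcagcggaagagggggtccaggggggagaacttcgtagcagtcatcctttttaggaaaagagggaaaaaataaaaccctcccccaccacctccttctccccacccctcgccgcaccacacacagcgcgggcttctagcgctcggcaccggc

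The PMAIP1 window held GGGCGG at 4 places and TGACG at 1. That of BCL2L11 held GGGCGG at 3 places and CCAAT and GTAAACA at 1 each, the first of BMF held GGGCGG at 2 and CCAAT and TGACG at 1 each, and that of BCL2 held TGACG at 1. The full site TGACGTCA and the E-box were not in these 4 windows. Among all 35116 promoter windows of this length, GGGCGG was in 45.0%, CCAAT in 34.6%, TGACG in 24.6%, CACGTG in 7.26%, GTAAACA in 3.42% and TGACGTCA in 1.85%. The matches describe letters in these windows and were not tested for binding. GC content was 71.3% for PMAIP1, 74.7% for BCL2L11, 65.0% for the first BMF window and 70.7% for BCL2, against a median of 58.7% over all windows.

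PMAIP1 (ENSG00000141682, chr18:59899948-59904306, plus strand) encodes NOXA, the BH3-only partner of MCL1, and its response was the largest of the 10 genes in every comparison with DMSO in which it was called. In WT cells it rose from 6.14, 4.59 and 4.56 CPM with DMSO to 17.2, 17.6 and 19.4 CPM with niraparib and to 15.8, 13.7 and 15.5 CPM with olaparib. All treated libraries lay above all DMSO libraries. The rise was 3.58-fold with niraparib (log2 fold change 1.84, SE 0.11, adjusted P = 1.1e-11, edgeR) and 2.98-fold with olaparib (1.57, SE 0.11, adjusted P = 2.6e-09). Between the inhibitors the log2 difference in WT was 0.27 in favor of niraparib (SE 0.099, adjusted P = 0.044), and it was lost without any one olaparib library and without niraparib replicate 1 or 3 (adjusted P up to 0.21).

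In PARP1 KO cells PMAIP1 was at 4.93, 4.47 and 4.49 CPM with DMSO, close to WT, with a genotype difference of -0.12 on the log2 scale (95% interval -0.37 to 0.13). Niraparib gave 6.10, 4.86 and 4.90 CPM, which overlapped the DMSO libraries, and a log2 fold change of 0.19 (95% interval -0.083 to 0.46, adjusted P = 0.72, edgeR). Olaparib gave 8.39, 8.10 and 7.02 CPM, all above the DMSO libraries, and a 1.69-fold rise (0.76, SE 0.13, adjusted P = 8.4e-04). The 2 inhibitors therefore differed in PARP1 KO cells in the opposite direction to WT, by -0.57 (SE 0.13, adjusted P = 0.0053), which passed without any one library. The change of PMAIP1 was smaller in PARP1 KO than in WT for both inhibitors: the interaction was -1.66 with niraparib (95% interval -1.996 to -1.32, adjusted P = 1.2e-09, edgeR) and -0.81 with olaparib (95% interval -1.14 to -0.47, adjusted P = 0.0042). The calls of PMAIP1 against DMSO and both interactions held without any one of the libraries compared.

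**Figure D4:**
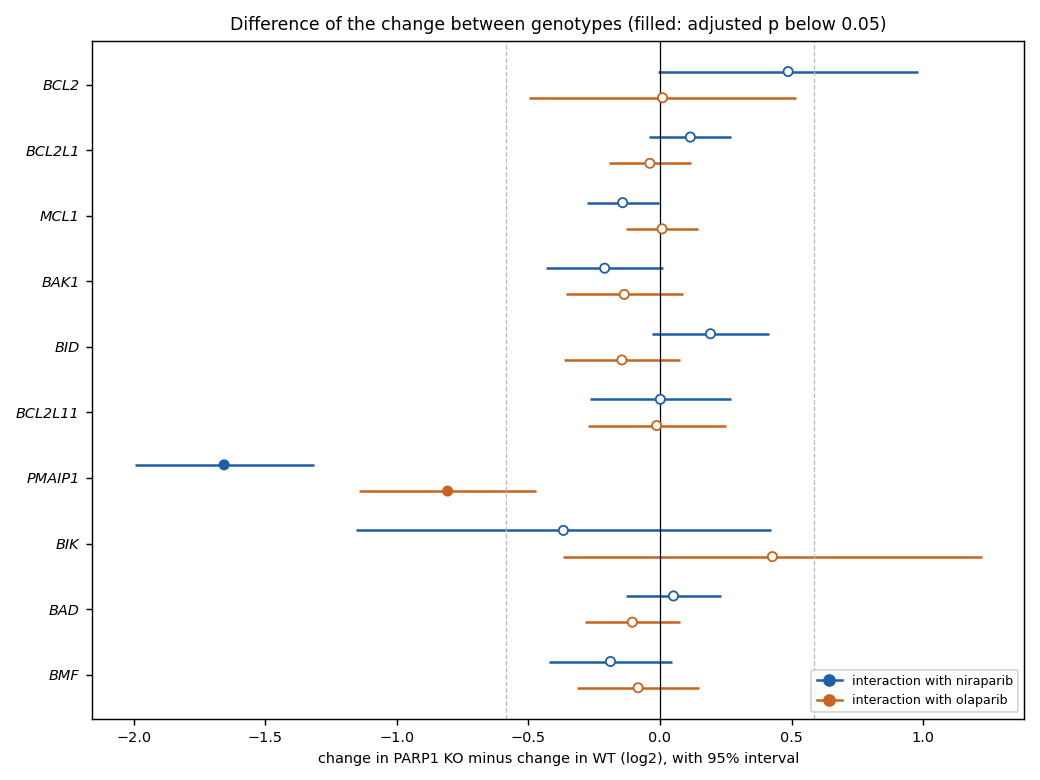
Interaction of genotype and inhibitor for the 10 genes, as the change in PARP1 KO minus the change in WT on the log2 scale, with 95% intervals (blue niraparib, orange olaparib; filled at an adjusted P value below 0.05; dashed lines at 1.5-fold). PMAIP1 is the only filled gene, at -1.66 and -0.81, and BIK has the widest intervals.

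Set against its partner, PMAIP1 per exon length was 2.65% ± 0.405 of MCL1 in WT with DMSO, 8.45% ± 0.653 with niraparib and 7.48% ± 0.472 with olaparib (SD, n = 3). In PARP1 KO the same ratio was 2.51% ± 0.0588, 2.83% ± 0.302 and 4.04% ± 0.205 in that order. Each treated group lay wholly above its DMSO group, and the exact permutation test (two-sided) gave P = 0.1 in each, the smallest P that 3 against 3 libraries allow. The 6 BH3-only genes summed per length stood at 28.3% ± 0.930 of the 3 guards in WT with DMSO, at 31.4% ± 1.69 with niraparib and at 32.4% ± 0.132 with olaparib. PMAIP1 made up 4.76% ± 1.11 of that BH3-only sum with DMSO, 15.1% ± 1.15 with niraparib and 12.4% ± 0.875 with olaparib. In PARP1 KO the BH3-only sum was 27.1% ± 0.726, 28.1% ± 0.638 and 27.7% ± 0.270 of the guards. RNA ratios are not ratios of proteins, which were not analysed here.

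BCL2L11 (ENSG00000153094, chr2:111119378-111168445, plus strand), the gene of BIM, stood apart between the 2 inhibitors in both genotypes. It was at 13.8, 12.9 and 13.1 CPM in WT with DMSO, at 12.8, 11.1 and 10.8 CPM with niraparib and at 16.7, 15.3 and 18.4 CPM with olaparib. All olaparib libraries were above, and all niraparib libraries below, the DMSO libraries. The log2 fold change was 0.34 with olaparib (SE 0.091, adjusted P = 0.0096, edgeR, lost without olaparib replicate 3 at 0.078) and -0.20 with niraparib (95% interval -0.39 to -0.0099, adjusted P = 0.093, and 0.030 without niraparib replicate 1, where it passed). In PARP1 KO cells the levels were 11.3, 10.8 and 11.02 CPM with DMSO, 9.57, 9.04 and 10.2 CPM with niraparib and 15.4, 13.1 and 13.1 CPM with olaparib. The groups again did not overlap, with log2 fold changes of 0.33 for olaparib (SE 0.095, adjusted P = 0.035) and -0.19 for niraparib (95% interval -0.39 to 0.0079, adjusted P = 0.57). The direct comparison of niraparib with olaparib gave -0.54 in WT (SE 0.091, adjusted P = 6.4e-05) and -0.52 in PARP1 KO (SE 0.096, adjusted P = 0.0013), and it passed without any one library in both. The interaction was -0.013 with olaparib (95% interval -0.27 to 0.25) and 0.0012 with niraparib (95% interval -0.27 to 0.27). In PARP1 KO the passing with olaparib was lost in 5 of the 6 fits that left out a library (all but that without olaparib replicate 3), with adjusted P values up to 0.17.

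BMF (ENSG00000104081, chr15:40087890-40108892, minus strand), a BH3-only gene tied to the cytoskeleton, rose with olaparib in both genotypes. In WT it was at 25.5, 21.7 and 22.6 CPM with DMSO, 26.2, 25.5 and 24.7 CPM with niraparib and 31.2, 27.8 and 32.2 CPM with olaparib. In PARP1 KO it was at 17.97, 19.2 and 18.9 CPM, 20.2, 16.8 and 17.2 CPM, and 25.8, 22.1 and 21.3 CPM in the same order. The olaparib libraries were all above the DMSO libraries in both genotypes, and the niraparib libraries overlapped them. With olaparib the log2 fold change was 0.39 in WT (SE 0.073, adjusted P = 5.2e-04, edgeR) and 0.31 in PARP1 KO (SE 0.087, adjusted P = 0.032, lost in 5 of the 6 fits that left out a library, all but that without olaparib replicate 3, with values up to 0.16). Niraparib was below olaparib by -0.26 in WT (adjusted P = 0.0080, lost without olaparib replicate 3) and by -0.35 in PARP1 KO (adjusted P = 0.011, lost without olaparib replicate 1 or niraparib replicate 2). The interaction with olaparib was -0.083 (95% interval -0.32 to 0.15). BMF was also lower in PARP1 KO than in WT with DMSO, by -0.31 on the log2 scale (SE 0.082, adjusted P = 0.045), which was lost in 5 of the 6 fits that left out a library (all but that without WT DMSO replicate 2) at values up to 0.35.

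BID (ENSG00000015475, chr22:17734138-17774770, minus strand), which caspase-8 cleaves to link death receptors to mitochondria, was at 39.7, 41.1 and 40.2 CPM in PARP1 KO with DMSO and at 36.0, 31.5 and 33.5 CPM with olaparib. The groups did not overlap, and the log2 fold change was -0.26 (SE 0.065, adjusted P = 0.015, edgeR), lost without olaparib replicate 2 or DMSO replicate 2 or 3 (adjusted P up to 0.086). With niraparib BID was at 42.2, 42.2 and 38.5 CPM in these cells, above olaparib by 0.29 (adjusted P = 0.0062). In WT its log2 fold changes were -0.17 with niraparib (95% interval -0.36 to 0.017) and -0.11 with olaparib (95% interval -0.30 to 0.077). BAD (ENSG00000002330, chr11:64269830-64284704, minus strand) passed in none of the 9 comparisons and lay between 46.0 and 55.9 CPM over the 18 libraries, with a log2 fold change of -0.0047 with niraparib in WT (95% interval -0.14 to 0.13). BIK (ENSG00000100290, chr22:43110750-43129712, plus strand), a BH3-only protein of the endoplasmic reticulum, also passed in none, and its 0.592 to 1.65 CPM left wide intervals. Its log2 fold change with niraparib in WT was 0.51 (95% interval -0.014 to 1.04), so a change was not detected and one of this size was not excluded.

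BBC3, the BH3-only gene of PUMA, is outside the 10 genes and moved with PMAIP1 in WT cells. In WT its mean was 6.36 ± 0.357 CPM for DMSO, 10.9 ± 0.234 for niraparib and 13.3 ± 2.65 for olaparib, and 5.82 ± 0.503, 5.21 ± 0.395 and 8.63 ± 1.53 CPM in PARP1 KO (SD, n = 3). The log2 fold changes in WT were 0.78 (SE 0.12, adjusted P = 1.3e-05, edgeR) and 1.06 (adjusted P = 1.4e-06). In PARP1 KO they were -0.16 with niraparib (adjusted P = 0.77) and 0.57 with olaparib (adjusted P = 0.0090, lost without olaparib replicate 1 or DMSO replicate 2). The interaction of BBC3 was called with niraparib, at -0.95 (SE 0.18, adjusted P = 1.1e-04), and was -0.49 with olaparib (adjusted P = 0.14).

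Further genes of the pathway were taken from 5 lists. Of the 13 other BCL2 family genes, 11 were tested in WT, where 6 passed upward and 2 downward with niraparib (median log2 fold change 0.16, against -0.02 over all genes, of which 38.0% passed and 13.8% were called). The 3 called were BBC3, HRK and BCL2L14, of which the last 2 averaged only 0.853 and 0.155 CPM. Among 15 genes of the apoptosome and the caspases, 3 passed upward and 4 downward with niraparib in WT (median -0.03), a share near the 38.0% of all genes. The 1 called was CASP8, the initiator caspase of death receptors, at 0.93 on the log2 scale (means 17.5 ± 1.91 and 33.4 ± 1.31 CPM, adjusted P = 3.2e-09, edgeR). Among 8 inhibitors of apoptosis, 2 passed upward and 1 downward (median 0.013), likewise near that share. BIRC5, the gene of survivin and a gene of dividing cells, fell from 250.2 ± 13.8 to 115 ± 4.80 CPM, at -1.12 (adjusted P = 1.8e-13). BIRC3, an inhibitor of apoptosis that is induced by NF-kB, was at 0.44 (adjusted P = 6.1e-04) without being called.

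All 10 death receptor and ligand genes tested in WT passed with niraparib, 7 upward and 3 downward (median 0.35, background 38.0%), and 3 were called (background 13.8%). TNFRSF10B, the death receptor DR5, rose from 65.6 ± 4.47 to 126 ± 5.69 CPM (log2 fold change 0.95, adjusted P = 5.9e-12, edgeR). The decoy receptor TNFRSF10C was at 1.51 (adjusted P = 1.1e-10), and the cytokine TNF at 1.54 on means of 1.11 ± 0.334 and 3.29 ± 0.505 CPM (adjusted P = 1.1e-04). Of 14 regulators of the members, 6 passed upward and 4 downward with niraparib in WT (median 0.024, background 38.0%). DDIT3, the stress factor CHOP, rose from 89.9 ± 10.97 to 192 ± 9.28 CPM (1.09, adjusted P = 3.3e-07). The pseudokinase TRIB3 was at 0.92 (adjusted P = 5.9e-12) and the cell cycle factor E2F1 at 0.74 (adjusted P = 7.0e-11).

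With olaparib in WT, 5 of the 11 other family genes passed upward and 0 downward, and 8 of the 14 regulators passed upward and 3 downward (medians 0.25 and 0.22, against -0.02 over all genes, of which 19% passed and 4.04% were called). Among the caspase genes 2 passed upward and 1 downward, among the inhibitors of apoptosis likewise 2 and 1, and among the death receptor genes 4 and 0; the caspase share was near the background. DDIT3 was called at 1.20 (adjusted P = 1.0e-06, edgeR), TRIB3 at 0.73 (adjusted P = 2.7e-09) and TNF at 1.92 (adjusted P = 4.6e-05). MYC was called lower at -0.63 (adjusted P = 1.9e-05, below 1.5-fold without DMSO replicate 1), and TNFRSF10C higher at 0.60 (adjusted P = 2.8e-04, below 1.5-fold without olaparib replicate 3 or DMSO replicate 1). CASP8 at 0.25 (adjusted P = 0.033, lost without olaparib replicate 1 or 2 or DMSO replicate 1 or 2) and BIRC5 at -0.21 (adjusted P = 0.0045) passed without being called. Directly compared in WT, niraparib was above olaparib for CASP8 by 0.68 (adjusted P = 4.7e-07) and TNFRSF10C by 0.91 (adjusted P = 2.8e-07), and below it for BIRC5 by -0.91 (adjusted P = 1.3e-11).

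Of the 5 lists, 0 genes passed with niraparib in PARP1 KO cells (edgeR, background 0.109%), and 6 of the 56 tested had an unadjusted P value below 0.05 (background 9.14%). With olaparib, 1 of the 9 other family genes tested there passed upward, 1 caspase gene upward and 3 downward, 1 inhibitor of apoptosis upward, 2 death receptor genes upward, and 3 regulators upward and 1 downward (background 8.29%). DDIT3 was called at 0.91 on means of 67.0 ± 1.30 and 126 ± 25.1 CPM (adjusted P = 0.0032, edgeR), and TNF at 1.07 (adjusted P = 0.0056). TRIB3 passed at 0.52 (adjusted P = 2.6e-05). Niraparib was below olaparib in PARP1 KO for DDIT3 by -0.95 (adjusted P = 0.0020), TRIB3 by -0.74 (adjusted P = 5.3e-07) and BBC3 by -0.73 (adjusted P = 0.0012, below 1.5-fold without olaparib replicate 1). Between the genotypes with DMSO, E2F1 was higher in PARP1 KO by 0.23 (adjusted P = 0.023, lost without WT or PARP1 KO DMSO replicate 1 or 2) and TRIB3 lower by -0.35 (adjusted P = 9.0e-04), the only genes of the 5 lists that passed there (background 1.39%). For the interaction with niraparib, 3 of the 11 other family genes, 3 of the 15 caspase genes, 2 of the 8 inhibitors of apoptosis, 6 of the 10 death receptor genes and 6 of the 14 regulators passed with a lower change in PARP1 KO, and 0, 1, 1, 1 and 3 in the other direction. Of all genes 22.9% passed, 3090 lower and 2571 higher, and the shares of the first 2 lists were near that. With olaparib, 1 death receptor gene and 1 regulator passed downward and 3 regulators upward (background 2.27%).

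**Figure D5:**
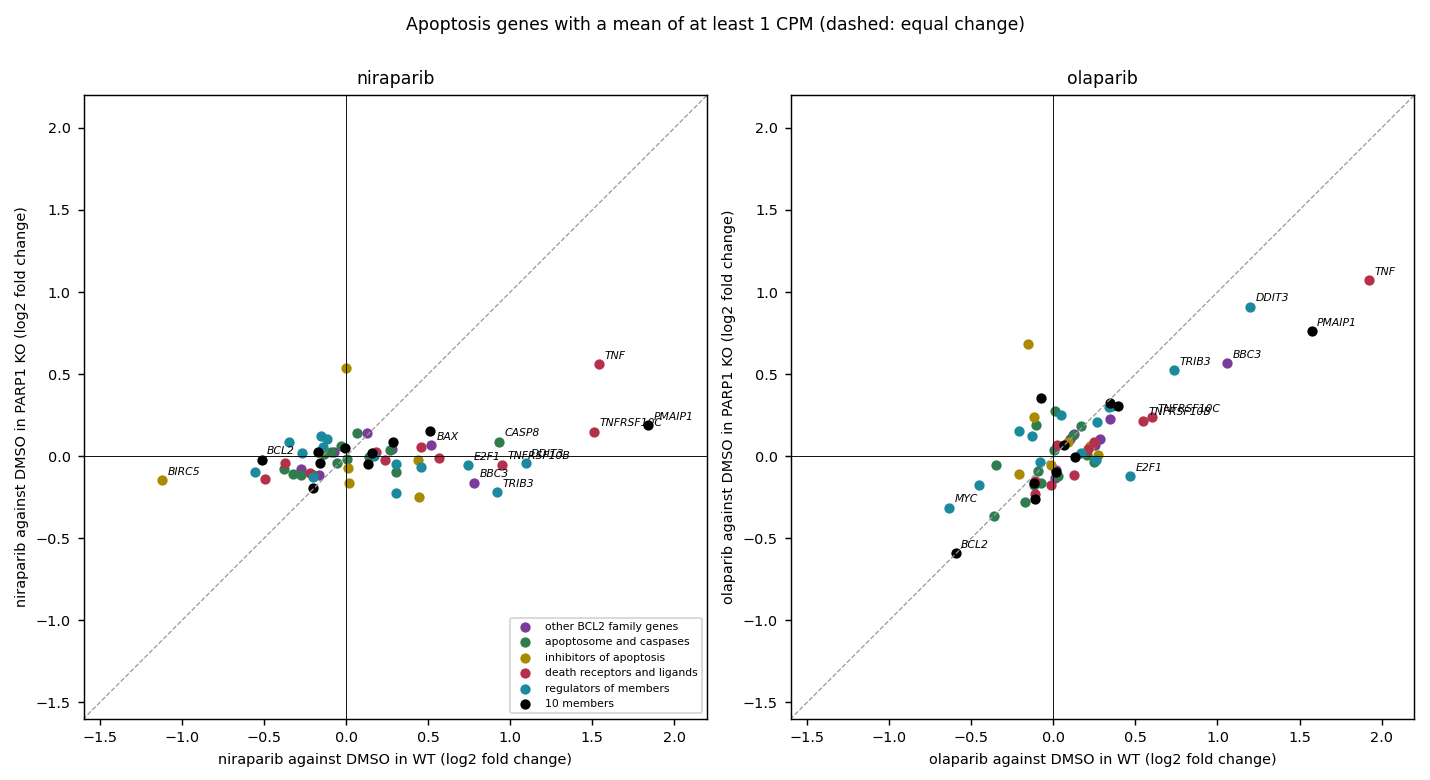
Log2 fold change against DMSO in WT (x axis) and in PARP1 KO (y axis) for the genes of the 5 lists and the 10 members with a mean of at least 1 CPM over the 18 libraries, niraparib on the left and olaparib on the right; the dashed line marks equal change. With niraparib the genes spread along the x axis, from BIRC5 at -1.12 to PMAIP1 at 1.84, and reach at most 0.56 on the y axis, for TNF. With olaparib TNF lies farthest from 0 on both axes, at 1.92 and 1.07. BBC3, BCL2, DDIT3, PMAIP1 and TRIB3 are among the others that depart from 0 on both.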

How the data were processed

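Poly(A) RNA of 18 T47D libraries (6 groups of 3) was sequenced. The authors trimmed reads with Trimmomatic, aligned them to GRCh38 with STAR, marked duplicates and counted reads on the reverse strand over exons with featureCounts 2.0.0 and Ensembl release 96; whether duplicates were removed is not stated. The deposited values are raw counts per gene for 58884 genes, summing to 28890837 to 52251288 per library.

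Counts were normalized with TMM factors and tested with the quasi-likelihood F test of edgeR 4.0.16 (R 4.3.3) on genes with more than 10 counts in total, within each genotype for the treatments and over all 18 libraries for the genotypes and interactions. P values were adjusted over all genes tested by Benjamini and Hochberg. Calls required a 1.5-fold change together with an adjusted P value under 0.05. CPM use TMM-scaled library sizes. Data were also simulated from these libraries, with 200 genes of at least 1 CPM changed by 1 on the log2 scale. Of these, 187 were recovered for niraparib in WT among 22293 genes, 191 for olaparib in PARP1 KO among 21984 and 174 for the interaction with niraparib among 24083. Unchanged genes called were 6, 4 and 6 in the same order. Smaller changes and genes at lower levels were not simulated as changed.

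The 10 genes and the 5 lists were chosen with earlier results of these data known. Of the lists, genes called in any of the 9 comparisons at a mean of at least 1 CPM were named, and BAX and BBC3 in any case; 1 gene of the lists is not reported here. Alternatives were a block for the replicate number, RLE size factors, 2 other thresholds and 2 other filters, 1 model of all libraries, DESeq2 1.42.0, and each library left out; for the named genes outside the 10, and for PARP1 without TMM factors, these were added after seeing the data. Promoters are from RefSeq.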

Additional observations from a re-analysis of the deposited data

Results flagged for a closer look

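The following genes differed between the genotypes in their change with an inhibitor, by the interaction term itself (change in PARP1 KO minus change in WT on the log2 scale, edgeR, 6 libraries per genotype). Among the 10 genes, PMAIP1 did so with niraparib at -1.66 (adjusted P = 1.2e-09) and with olaparib at -0.81 (adjusted P = 0.0042).

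With niraparib, the pore former BAX was at -0.46 (adjusted P = 3.6e-04) and the BH3-only gene BBC3 at -0.95 (adjusted P = 1.1e-04). The initiator caspase CASP8 was at -0.85 (adjusted P = 2.3e-07). The inhibitors of apoptosis went in opposite directions, BIRC3 at -0.70 (adjusted P = 3.6e-04) and BIRC5 at 0.97 (adjusted P = 6.4e-11). Of the death receptor genes, TNFRSF10B was at -1.01 (adjusted P = 5.6e-12), TNFRSF10C at -1.37 (adjusted P = 7.5e-08) and TNF at -0.98 (adjusted P = 0.035). The value of TNF lost its call without WT niraparib replicate 2, WT DMSO replicate 1 or 3, PARP1 KO niraparib replicate 1 or 3 or PARP1 KO DMSO replicate 2, with adjusted P values up to 0.16. Of the regulators, TRIB3 was at -1.14 (adjusted P = 2.6e-13), DDIT3 at -1.14 (adjusted P = 2.0e-04) and E2F1 at -0.81 (adjusted P = 5e-10).

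With olaparib, E2F1 was at -0.58 (adjusted P = 1.5e-05) and TNFRSF10B at -0.33 (adjusted P = 0.02). That of TNFRSF10B was lost in 7 of the 12 fits that left out a library, those without WT olaparib replicate 1, WT DMSO replicate 2 or 3, PARP1 KO olaparib replicate 2 or 3 or PARP1 KO DMSO replicate 1 or 2, with adjusted P values up to 0.071.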

How the results depend on the processing

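Of the 90 log2 fold changes of the 10 genes, 1050 of 1170 values under alternatives kept their direction and their side of an adjusted P value of 0.05. By that threshold alone, without the fold rule of a call, 64 no longer passed and 9 newly passed. Another 47 reversed, all of these by leaving out a library. Numbers of called genes stayed the same under RLE size factors, filterByExpr, DESeq2 and all 18 libraries in 1 model in the comparisons to which these applied. With olaparib in PARP1 KO the count was 2, and 1 without a filter on low counts or with the replicate block, where BCL2 had an adjusted P value of 0.069 (edgeR). At an adjusted P value below 0.05 alone, the counts were 5 and 4 with niraparib and olaparib in WT, 3 between them, 6 with olaparib in PARP1 KO, 5 between the inhibitors there and 1 between the genotypes. At an absolute log2 fold change above 1.5, they were 1 with olaparib in WT, 0 with olaparib in PARP1 KO and 0 for the interaction with olaparib. The share of all genes at that threshold was not counted, so these numbers have no background beside them. Leaving out each library gave 1 to 2 called with olaparib in WT, 0 to 1 between the inhibitors in WT and in PARP1 KO, and 1 in every such fit with olaparib in PARP1 KO. PMAIP1 kept its 3 calls against DMSO and both interactions under every alternative of test, filter, scaling and library. Apart from the values and thresholds given here, the cause of a change was not tested.

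Values changed sign with niraparib against DMSO in WT BAD (-0.059 to 0.070). With olaparib against DMSO in WT BIK (-0.27 to 0.12) and BAD (-0.038 to 0.060) did so. Between niraparib and olaparib in WT BCL2 (-0.020 to 0.13), BCL2L1 (-0.081 to 0.018), BID (-0.11 to 0.043) and BAD (-0.062 to 0.060) did so. With niraparib against DMSO in PARP1 KO BCL2 (-0.087 to 0.0080), BCL2L1 (-0.079 to 0.0090), MCL1 (-0.0099 to 0.048) and BIK (-0.090 to 0.41) did so. With olaparib against DMSO in PARP1 KO BAK1 (-0.11 to 0.057) did so. Between niraparib and olaparib in PARP1 KO MCL1 (-0.086 to 0.0019), BIK (-0.44 to 0.067) and BAX (-0.047 to 0.029) did so. Between the genotypes with DMSO PMAIP1 (-0.19 to 0.018), BAD (-0.067 to 0.034) and BAX (-0.094 to 0.0096) did so. For the interaction with niraparib BCL2L11 (-0.065 to 0.053) and BAD (-0.031 to 0.10) did so. For the interaction with olaparib BCL2 (-0.092 to 0.092), BCL2L1 (-0.074 to 0.019), MCL1 (-0.042 to 0.046) and BCL2L11 (-0.098 to 0.045) did so. None of these passed the test.

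Same-numbered libraries did not deviate together: over 45 pairs the correlation of their deviations from the group means ran from -0.56 to 0.58, and 16 pairs were over 0.1, so the number was not taken as a pairing. With 3 libraries per group, BCL2 and BIK, at few counts, had the widest intervals.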
